A study of Mus musculus with 2 samples.

Results

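Iron and haem handling was described through 9 listed genes, of the 32285 in the count matrices (Cd163, Hmox1, Slc40a1, Fth1, Ftl1, Slc11a1, Tfrc, Hp and Blvrb), in the stromal vascular fraction of mouse epididymal white adipose tissue, the cells left after mature adipocytes are removed from digested fat. They were found by symbol, and all 9 had UMIs in both libraries. They were chosen by measured UMI levels of these same libraries, the list having been drawn up with earlier results known, so their levels are given as a description, with no test. A single 3′ single-cell library came from Camk2d-CKO mice, in which Camk2d is conditionally knocked out in the myeloid lineage, and another from WT mice. Both had 10 weeks of high-fat diet and were made in a single batch. Camk2d encodes the delta chain of a calcium/calmodulin-dependent protein kinase. The labels give no Cre driver, deleted exons, strain or age, and do not say how many mice went into a library. A description field names embryonic hindlimb, whereas the source, tissue and protocol fields name adipose tissue.

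After filtering, 9200 Camk2d-CKO and 14854 WT cells remained, with medians of 8257 and 3122.5 UMIs (unique molecular identifiers, each standing for a captured transcript). In both libraries 48 barcode sequences occurred. The lowest deposited barcode held 500 UMIs in Camk2d-CKO and 1276 in WT, so the limit of 500 UMIs removed no WT barcode. WT had 15555 deposited barcodes, although 10000 to 13000 cells were loaded. An unnamed cluster (median 1458 UMIs) held 59 Camk2d-CKO and 2682 WT barcodes, and another (median 2306) held 22 and 2105. Whether all of these are single whole cells was not tested. Cells were gated on marker genes that exclude the 9 genes, with limits set after the distributions of the markers were seen. The macrophage gate required 100 UMIs per 10000 from 10 markers such as Adgre1, C1qa and Csf1r, and held 986 Camk2d-CKO and 1608 WT cells with medians of 11792 and 7196 UMIs. Macrophages were divided by markers of resident macrophages (Lyve1, Folr2, Timd4 and 8 others) and of lipid-associated macrophages (Trem2, Gpnmb, Cd9 and 8 others). The resident gate held 638 Camk2d-CKO and 922 WT cells, the lipid-associated gate 124 and 317, both gates together 29 and 110, and neither gate 195 and 259. Camk2d itself was at 24.0 CPM (UMIs per 1000000 UMIs of the summed cells) in Camk2d-CKO macrophages and 44.5 CPM in WT macrophages. Its 3′ tags may lie outside the deleted part, so this checks nothing about the deletion.

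Free RNA, transcripts released by other cells and caught in a droplet, was more visible in the WT library. T cells should lack macrophage transcripts, yet the summed macrophage markers stood at 2.50 UMIs per 10000 in Camk2d-CKO T cells and 9.80 in WT T cells. Macrophages held 21.9 and 45.2 UMIs per 10000 of haemoglobin genes in Camk2d-CKO and WT, and 3.82 and 8.53 of progenitor markers, although red cells had been lysed during preparation. Levels of the listed genes in T cells are therefore given beside those of other cells. Because each genotype has 1 library, a difference between them could not be tested, and every interval is a 95% interval for counting error only. In these summed counts a smaller share of expressing cells and less RNA per cell cannot be told apart.

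Macrophages clear haemoglobin and old red cells and pass the iron on. Haptoglobin (Hp) binds free haemoglobin, and Cd163 is the macrophage receptor that takes up the complex. Haem oxygenase 1 (Hmox1) opens the haem ring and frees its iron, and biliverdin reductase B (Blvrb) reduces biliverdin-type products. Ferritin, built of heavy (Fth1) and light (Ftl1) chains, stores iron, and ferroportin (Slc40a1) is the cellular iron exporter. Slc11a1 carries metal ions across the phagosome membrane, and the transferrin receptor (Tfrc) brings in transferrin-bound iron.

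Fth1, Ftl1, Slc40a1 and Tfrc, 4 of the 9 genes, carry iron-responsive elements, the short RNA hairpins through which iron regulatory proteins act on translation (ferritin, ferroportin) or on message stability (Tfrc). They are shown because the UMIs below count messages and do not measure translation. The search took C, 5 bases, the loop CAGTG with a last base other than G, and 5 bases that all pair with the first 5, G with T allowed, on the sense strand of GENCODE vM21 transcripts (GRCm38, the assembly of mm10). The ferritin and ferroportin elements found lie in the 5′ UTR and the 4 found in Tfrc in the 3′ UTR. Elements that depart from this strict pattern would be missed, so the 4 may not be the full set of Tfrc. Letters are given as DNA, with the 6 loop bases in capitals.
Fth1: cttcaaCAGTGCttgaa
Ftl1: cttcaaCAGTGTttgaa
Slc40a1: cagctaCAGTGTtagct
Tfrc element 1: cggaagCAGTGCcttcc
Tfrc element 2: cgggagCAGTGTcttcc
Tfrc element 3: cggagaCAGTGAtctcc
Tfrc element 4: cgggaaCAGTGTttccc
The Fth1 element is at chr19:9982738-9982754 on the plus strand, the Ftl1 element at chr7:45459785-45459801 on the minus strand and the Slc40a1 element at chr1:45925471-45925487 on the minus strand. The Tfrc elements are on the plus strand at chr16:32631225-32631241, chr16:32631604-32631620, chr16:32631669-32631685 and chr16:32631716-32631732. The same pattern occurred in 1.01% of 21877 protein-coding genes. A core antioxidant response motif, TGACNNNGC on either strand, was in 0 of the 9 RefSeq promoters held for 6 of the genes (GRCm38.p6, 250 bases before to 50 after the start) and in 12.4% of all 32851 promoters. No promoter was held for Hmox1, Slc40a1 or Hp, so these were not searched. Sequence outside that window was not searched for any gene.

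The levels were first compared across cell types. Of the 8 genes that reached 50 CPM in some type of both libraries, 7 had their highest level in macrophages among the 7 types with at least 100 cells, against a share of 15.4% of all genes at that floor. The exception was Hp, and Slc40a1, below the floor, was also highest in macrophages. Ftl1 (chromosome 7, 45457944 to 45459884, minus strand of mm10) was at 10899 CPM in Camk2d-CKO macrophages and 12394 CPM in WT macrophages. In T cells it was at 794 and 2129 CPM. Fth1 (chromosome 19, 9980598 to 9985098, plus strand) was at 8661 and 10128 CPM, and in T cells at 1645 and 2841 CPM. Together the ferritin chains made up 1.96% of all macrophage UMIs in Camk2d-CKO and 2.25% in WT, against 0.798% and 0.875% in progenitors. Among the 9 types with at least 50 cells in both libraries, progenitors and monocytes came next for both chains. Smaller gates stood higher than these, with Fth1 at 5882 and 8222 CPM in neutrophils (25 Camk2d-CKO and 6 WT cells) and at 5394 and 9300 CPM in mast cells (29 in each library).

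**Figure D1:**
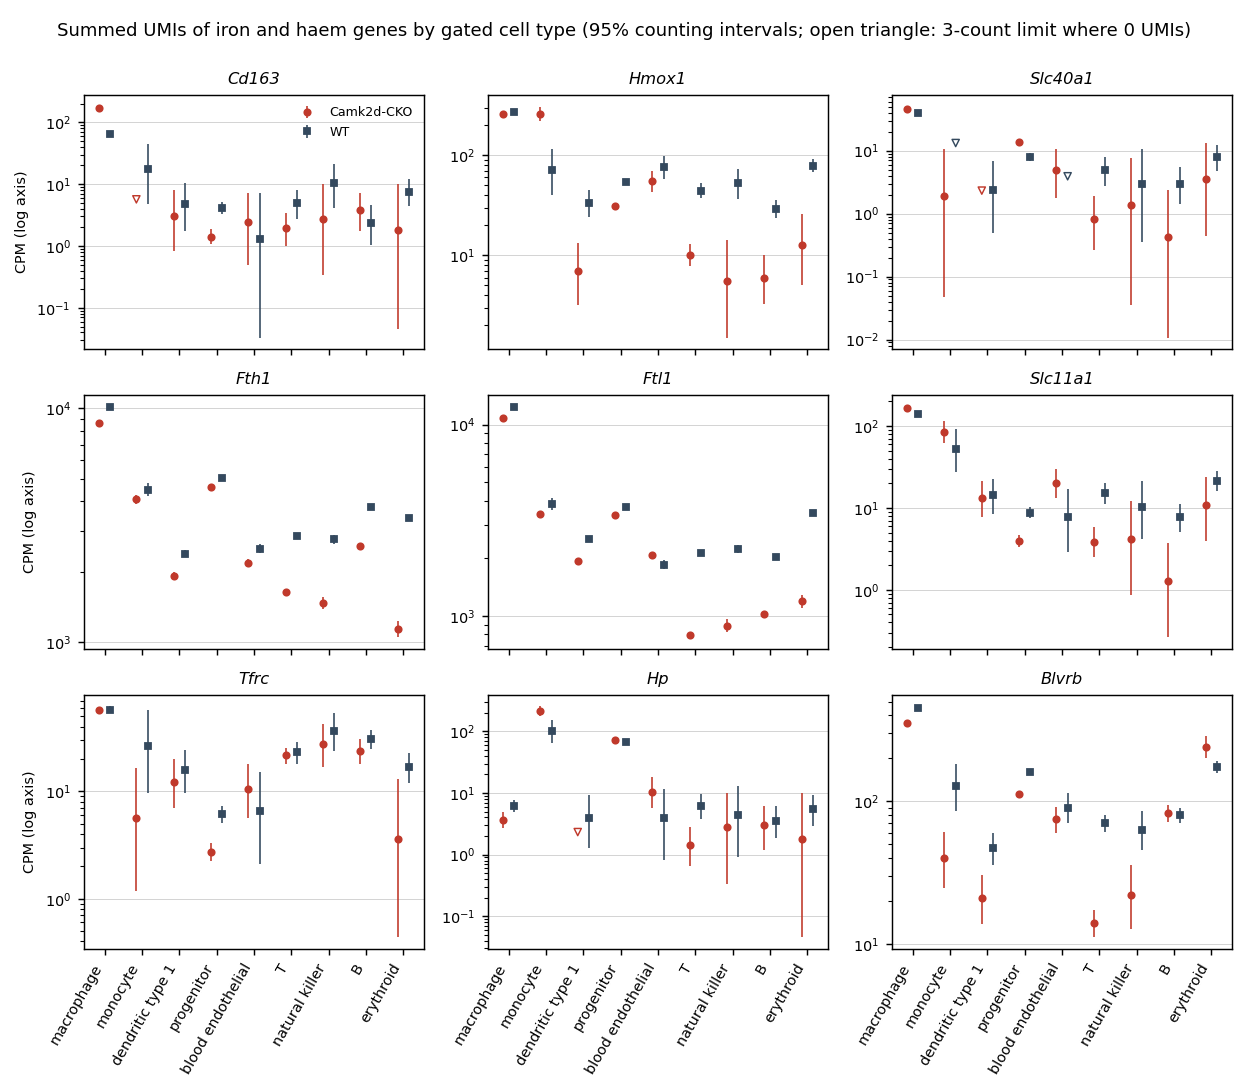
CPM of summed UMIs (log axis) of each listed gene in 9 gated cell types, Camk2d-CKO as red circles and WT as dark squares, with 95% Poisson intervals for counting error and open triangles at the 3-count limit where a type had 0 UMIs. Macrophages are the highest of these types for every gene except Hp. Their interval overlaps that of monocytes for Hmox1 in Camk2d-CKO, and those of natural killer cells and monocytes for Tfrc in WT.

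The UMI ratio of the ferritin chains differed between cell types. Ftl1 had 1.26 UMIs per Fth1 UMI in Camk2d-CKO macrophages and 1.22 in WT macrophages. Migratory dendritic cells, gated on Ccr7 and Fscn1, leaned furthest to the light chain, with 2.21 (2.04 to 2.40) in Camk2d-CKO and 2.42 (2.22 to 2.64) in WT. Type 2 dendritic cells leaned the other way, at 0.424 and 0.512, as did B cells, at 0.394 and 0.536. The order migratory dendritic, macrophage, progenitor, B was the same in both libraries. T cells had 0.483 in Camk2d-CKO and 0.749 in WT, a wider gap than in progenitors (0.725 and 0.739). A pseudogene copy, Ftl1-ps1, took 3454 Camk2d-CKO and 5503 WT UMIs of its own over all barcodes, and how reads shared by the copies were placed is not given in the sources used here, so the Ftl1 level is uncertain to that extent.

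Cd163, Slc11a1 and Slc40a1 had macrophage intervals above those of all 8 other plotted types in both libraries. Cd163 (chromosome 6, 124304656 to 124330527, plus strand of mm10) was at 172 CPM in Camk2d-CKO macrophages and 63.8 CPM in WT macrophages, and at 1.94 and 4.89 CPM in T cells. Gated macrophages held 84.7% of all Cd163 UMIs in Camk2d-CKO and 62.6% in WT. Cells of no gate held 10.97% in Camk2d-CKO and 26.47% in WT. They made up 25.07% of kept Camk2d-CKO cells and 48.26% of kept WT cells. The macrophage shares count gated cells only, so they do not show that Cd163 was less confined to macrophages in WT. Slc11a1 (chromosome 1, 74375195 to 74386062, plus strand) was at 166 and 140 CPM in macrophages and at 85.1 and 52.9 CPM in the 54 Camk2d-CKO and 52 WT monocytes, the next of the plotted types in each library. The gated neutrophils held 21 Slc11a1 UMIs in Camk2d-CKO (166 CPM, as high as macrophages) and 1 UMI in WT (56.7 CPM). T cells had 3.88 CPM of it in Camk2d-CKO and 15.3 CPM in WT. Slc40a1 (chromosome 1, 45908068 to 45926523, minus strand) was at 46.2 and 39.8 CPM in macrophages. The few gated neutrophils also held it, with 20 UMIs in 25 Camk2d-CKO cells (158 CPM) and 2 UMIs in 6 WT cells (113 CPM). Progenitors held Slc40a1 at 13.5 CPM in Camk2d-CKO and 7.96 CPM in WT, against 0.808 and 4.89 CPM in T cells, and the WT progenitor interval overlapped that of WT erythroid cells, the next plotted type.

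Hp (chromosome 8, 109575128 to 109579172, minus strand) followed another order. Neutrophils had 1682 CPM in Camk2d-CKO (213 UMIs in 25 cells) and 1077 CPM in WT (19 UMIs in 6 cells). Monocytes had 212 and 101 CPM, and progenitors 72.1 and 67.3 CPM. Macrophages had only 3.69 and 6.16 CPM, and T cells 1.45 and 6.19 CPM, so the WT macrophage level was at that of WT T cells. By number of UMIs the progenitors were the main source, with 72.3% of Hp UMIs in Camk2d-CKO and 67.6% in WT.

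Tfrc (chromosome 16, 32608920 to 32632794, plus strand) was at 57.0 CPM in Camk2d-CKO macrophages and 58.0 CPM in WT macrophages. Natural killer and B cells came next among the plotted types, with natural killer cells at 27.7 and 36.6 CPM, B cells at 23.8 and 30.6 CPM and T cells at 21.6 and 23.1 CPM, whose intervals overlap in each library. WT monocytes, with 6 UMIs, stood between B and T cells at 26.5 CPM, and Camk2d-CKO monocytes, with 3 UMIs, at 5.67 CPM. In WT the macrophage interval overlaps those of natural killer cells and monocytes as well. Progenitors were the lowest plotted type in Camk2d-CKO and in WT, at 2.75 and 6.11 CPM. In Camk2d-CKO T cells, the 33 cells with markers of cycling had 51.0 CPM of Tfrc (32.7 to 75.9) and the other 1034 had 19.2 CPM (15.8 to 23.2). The 14 cycling WT T cells had 4 Tfrc UMIs, or 31.9 CPM (8.69 to 81.6), an interval that holds the 22.8 CPM of the other 747.

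Blvrb (chromosome 7, 27447978 to 27466144, plus strand) was at 354 CPM in Camk2d-CKO macrophages and 452 CPM in WT macrophages. T cells had 13.9 and 70.1 CPM of it. Erythroid cells, gated on haemoglobin, were second among the plotted types, with 240 CPM in Camk2d-CKO and 175 CPM in WT, and progenitors followed, with 113 and 161 CPM, where the WT intervals of the pair overlap. Mast cells, outside the plot, had 105 CPM in Camk2d-CKO (6 UMIs) and 218 CPM in WT (17 UMIs). Haemoglobin genes took 7583 of every 10000 UMIs in Camk2d-CKO erythroid cells and 4146 in WT ones, and the part of this in the CPM of other erythroid genes was not tested. Hmox1 (chromosome 8, 75093621 to 75100589, plus strand) was at 260 CPM in Camk2d-CKO macrophages and 269 CPM in WT macrophages, and at 10.2 and 44.3 CPM in T cells. The monocyte level of Hmox1, 259 CPM in Camk2d-CKO and 70.6 CPM in WT, rested on 1 Camk2d-CKO cell that held 120 of the 137 UMIs. Without it Camk2d-CKO monocytes stood at 32.9 CPM, and WT monocytes without their highest cell stood at 50.3 CPM.

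Macrophage states were compared next, within each library. Of 8 genes at 50 CPM or more in the higher state of both libraries, 4 were at least 1.5-fold higher in resident than in lipid-associated macrophages of both (Cd163, Slc40a1, Tfrc and Hmox1), against 14.8% of all 2836 genes at that floor. Only Slc11a1 among the 8 was at least 1.5-fold lower in both, against 16.5% of all genes. The haemoglobin receptor and the iron exporter thus had their higher levels on the resident side, and ferritin and Slc11a1 on the lipid-associated side.

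Cd163 was at 267 CPM in resident and 19.3 CPM in lipid-associated Camk2d-CKO macrophages, a 13.9-fold difference. In WT the values were 124 and 5.30 CPM, a 23.5-fold difference. Slc40a1 was close in both libraries, at 70.5 CPM in Camk2d-CKO and 70.2 CPM in WT resident cells. In lipid-associated cells it was at 6.13 and 6.09 CPM, from 14 and 23 UMIs. The resident state was thus 11.5-fold higher in Camk2d-CKO and also 11.5-fold higher in WT. Tfrc was 2.26-fold higher in resident cells of Camk2d-CKO and 3.26-fold higher in those of WT, and Hmox1 1.88-fold and 2.51-fold higher. For each of these 4 genes the interval of the ratio between states was above 1.5-fold in both libraries.

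Fth1 was at 7374 CPM in resident and 12580 CPM in lipid-associated Camk2d-CKO macrophages, 1.71-fold higher in the lipid-associated cells. In WT it was at 8237 and 12351 CPM, just under 1.5-fold higher in the lipid-associated cells. For Ftl1 the lipid-associated cells were 1.38-fold higher in Camk2d-CKO and 1.48-fold higher in WT. The highest ferritin levels were in cells that passed both state gates, where the chains together took 3.01% of UMIs in Camk2d-CKO and 3.07% in WT. Slc11a1 was 1.78-fold higher in lipid-associated cells of Camk2d-CKO and 1.69-fold higher in those of WT. Blvrb differed less between states, 1.21-fold and 1.11-fold higher in resident cells, and was lowest in cells of neither state, at 206 CPM in Camk2d-CKO and 303 CPM in WT.

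**Figure D2:**
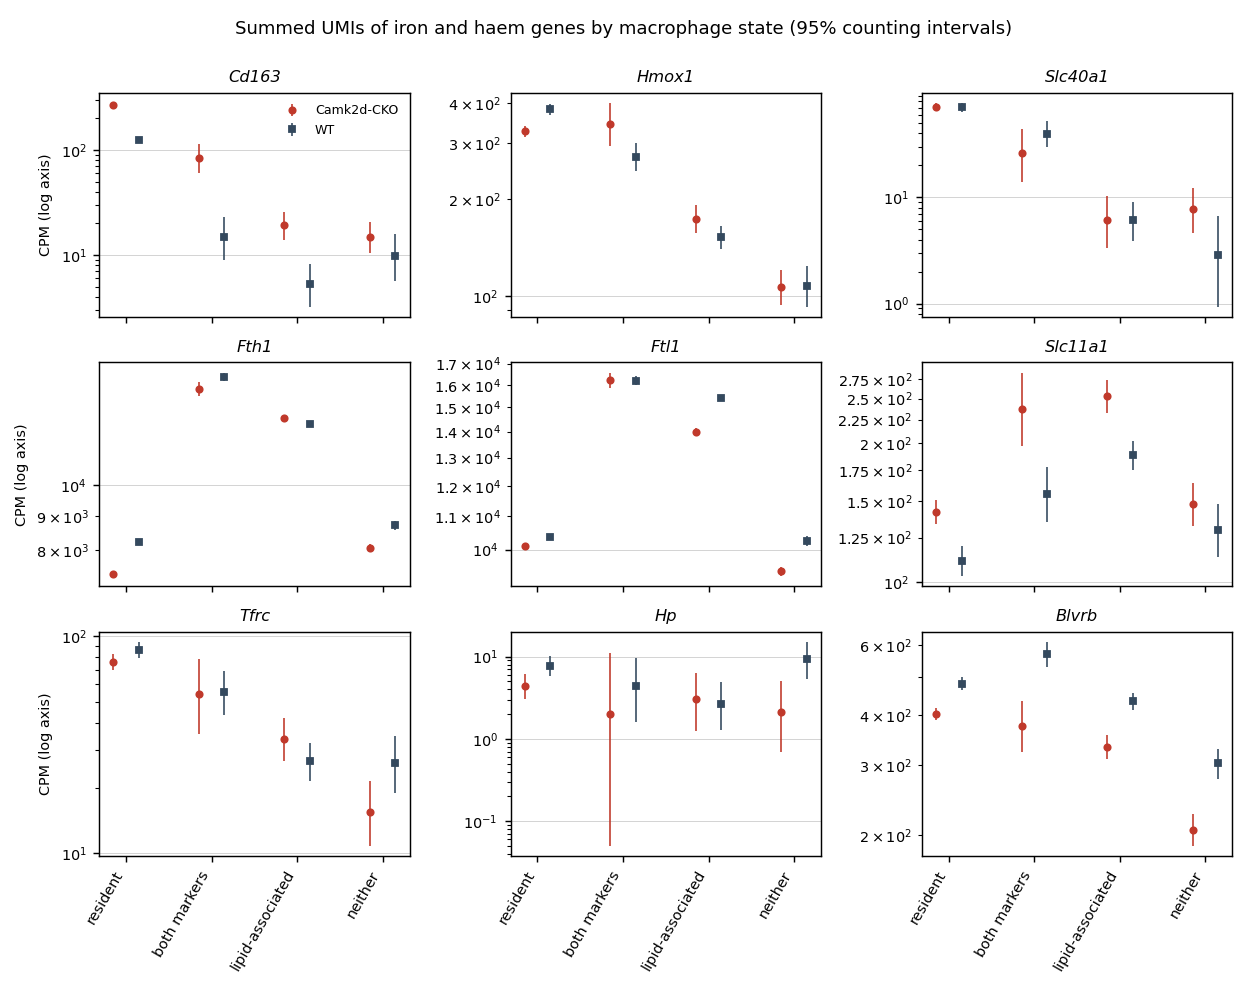
CPM of summed UMIs (log axis) of each listed gene in 4 macrophage gates, Camk2d-CKO as red circles and WT as dark squares, with 95% Poisson intervals for counting error. Cd163, Slc40a1, Tfrc and Hmox1 are higher in the resident than in the lipid-associated gate of both libraries, and Fth1, Ftl1 and Slc11a1 are lower.

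The state differences were graded. Macrophages were divided into 6 bins by their resident marker level, from under 30 to 200 or more UMIs per 10000. From the lowest to the highest bin, Slc40a1 had 1.32, 12.4, 24.7, 39.2, 99.9 and 160 CPM in Camk2d-CKO. The WT bins had 0.963, 7.58, 28.9, 52.4, 81.5 and 128 CPM. Each step was thus upward in both libraries, and Hmox1 climbed likewise from 126 to 588 CPM over the Camk2d-CKO bins and from 133 to 647 CPM over the WT bins. Tfrc climbed over all 6 WT bins, to 150 CPM, but in Camk2d-CKO the highest bin (88.3 CPM) was below the fifth (117 CPM). Over 6 bins of lipid-associated markers, Fth1 climbed to 14858 CPM in Camk2d-CKO and 13304 CPM in WT, and Slc11a1 to 274 and 187 CPM.

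**Figure D3:**
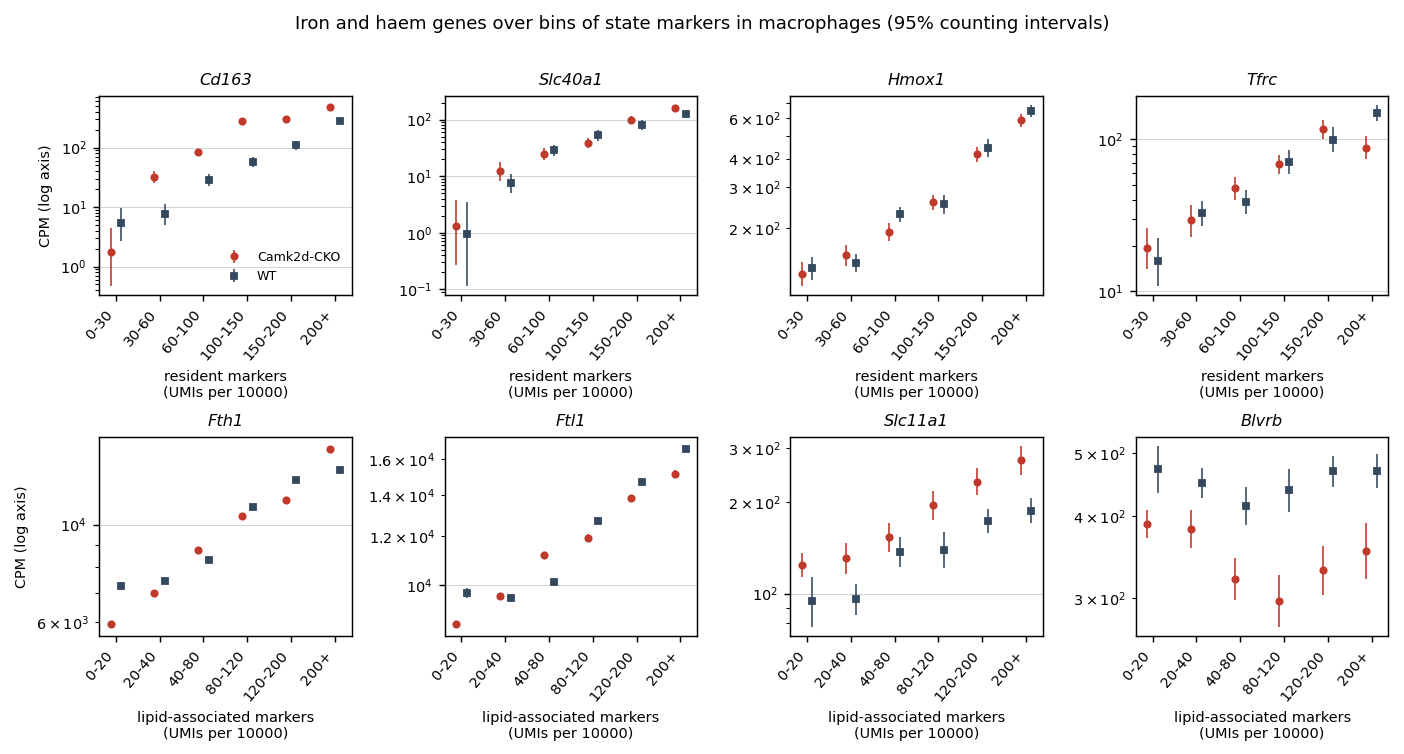
CPM (log axis) in macrophages binned by the summed resident markers (upper row) or lipid-associated markers (lower row) in UMIs per 10000, Camk2d-CKO as red circles and WT as dark squares, with 95% Poisson intervals. Slc40a1 climbs along the resident bins from 1.32 to 160 CPM in Camk2d-CKO and from 0.963 to 128 CPM in WT, and Blvrb shows no single direction along the lipid-associated bins.

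The genotypes were then compared within macrophages. A gene was called when the libraries differed at least 1.5-fold and the higher one reached 50 CPM. Of the 7 listed genes at that floor 1, Cd163, was called higher in Camk2d-CKO, where 3.69% of all 2794 genes were, and 0 were called lower, where 2.11% of all genes were. The median log2 ratio of Camk2d-CKO over WT was -0.04 over the 7 and -0.06 over all genes at the floor. Cd163 had a log2 ratio of 1.43 (1.31 to 1.54). Hmox1 had -0.04 (-0.11 to 0.02), Tfrc -0.03 (-0.17 to 0.12) and Slc40a1 0.22 (0.05 to 0.39). The direction of Slc40a1 turned, to -0.58, when 9 joint bins of the state markers were weighted equally, and its ratio was 0.01 within both the resident and the lipid-associated gate. The 2 ferritin chains, at -0.23 for Fth1 and -0.19 for Ftl1, and Blvrb, at -0.35 (-0.41 to -0.30), were lower, and Slc11a1, at 0.24 (0.15 to 0.33), was higher, all by less than 1.5-fold.

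The same rule was applied within each state gate. In resident macrophages 1 of 8 genes at the floor, Cd163, was called higher (2.96% of all genes) and 0 lower (2.64%). In lipid-associated macrophages 0 of 5 were called higher (3.43%) or lower (1.99%), Cd163 being under the floor there at 19.3 CPM in Camk2d-CKO and 5.30 CPM in WT, and in cells of neither state 0 of 5 were called higher (5.4%) or lower (4.68%). In the 29 Camk2d-CKO and 110 WT cells that passed both gates, 2 of 7 were called higher (6.42%), Cd163 at 83.9 CPM in Camk2d-CKO and 14.7 CPM in WT and Slc11a1 at 238 and 156 CPM, and 1 was called lower (7.9%), Blvrb at 376 and 568 CPM. The Slc11a1 and Blvrb folds there, 1.53-fold higher and a log2 ratio of -0.60, lay at the limit, and their intervals crossed it. The log2 ratio of Fth1 was 0.03 in lipid-associated and -0.16 in resident cells, and that of Ftl1 was -0.14 and -0.04.

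Cd163 was detected in a minority of macrophages, a share that moves with depth and sets no limit on how many express it. It had at least 1 UMI in 257 of 986 Camk2d-CKO and 191 of 1608 WT macrophages, that is 26.1% and 11.9%. With every cell thinned to 2000 UMIs, which left out 55 and 39 cells, the shares were 15.7% (13.4 to 18.2, Clopper-Pearson) in Camk2d-CKO and 6.95% (5.74 to 8.32) in WT. At 1000 UMIs they were 10.9% and 4.23%. T cells, with medians of 5066 and 3806 UMIs, gave 0.491% in Camk2d-CKO and 0.554% in WT when thinned to 2000 UMIs, and 1.12% and 1.97% unthinned. The 10% of macrophages with the most Cd163 held 82.3% of Cd163 UMIs in Camk2d-CKO and 96.4% in WT, and the single highest cells held 50 and 36. That 10% was 99 of 257 cells with a UMI in Camk2d-CKO and 161 of 191 in WT. These shares thus follow detection at unequal depth and do not show that Cd163 was more concentrated in WT.

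The Cd163 difference was followed over the macrophage bins, since the libraries differed in their mix of states. Along the resident markers, Cd163 had 1.76, 32.0, 84.2, 275, 303 and 484 CPM in the 6 Camk2d-CKO bins. The WT bins had 5.29, 7.58, 28.5, 56.9, 110 and 281 CPM. Camk2d-CKO was higher with an interval above 0 in 5 of the 6 bins. In the lowest bin it was not, with 4 UMIs against 11 in WT. The log2 ratio was smallest of the 5 in the most strongly resident bin, at 0.78 (0.61 to 0.95), and largest in the bin from 100 to 150, at 2.27 (1.97 to 2.59). Along the lipid-associated markers the ratio was smaller at the low end, 0.52 (0.34 to 0.71) under 20 and 0.30 (0.09 to 0.52) from 20 to 40, and 2.33 (1.67 to 3.03) from 120 to 200. It was again 0.52 (-0.81 to 1.80) in the bin of 200 or more, from 10 UMIs in Camk2d-CKO and 14 in WT, so the ratio had no single direction along these markers. Those markers also carry free RNA, with 5.06 UMIs per 10000 in Camk2d-CKO T cells and 22.7 in WT T cells, and its part in the binned values was not tested.

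With both marker levels crossed into 9 bins, Camk2d-CKO was higher with an interval above 0 in 8, of which the pair with the widest intervals held 1 and 2 WT UMIs. In the largest bin, strongly resident cells with few lipid-associated markers (315 Camk2d-CKO and 401 WT cells), Cd163 was at 379 CPM in Camk2d-CKO and 212 CPM in WT, a log2 ratio of 0.84 (0.70 to 0.97). The bin with few resident and intermediate lipid-associated markers had 11.4 and 11.8 CPM, a log2 ratio of -0.04 (-1.07 to 1.00).

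Cd163 in T cells stood at 1.13% (0.58 to 1.98) of the macrophage level in Camk2d-CKO, from 12 UMIs. In WT it stood at 7.66% (4.27 to 12.7), from 15 UMIs. Macrophages with many UMIs of other lineages were then left out, which kept 783 of 986 Camk2d-CKO and 514 of 1608 WT cells. The log2 ratio of Cd163 was 1.96 in these cells. Over all genes, the 103 higher and 59 lower calls became 200 and 234 there. The part of free RNA in the Cd163 ratio was not tested.

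Resident macrophages with a Cd163 UMI (205 Camk2d-CKO and 144 WT cells) were set against resident macrophages without (433 and 778 cells). The cells with a UMI were deeper, with medians of 12574 against 11048 UMIs in Camk2d-CKO and 7649.5 against 6355.5 in WT, and its part in the values was not tested. Timd4, a phosphatidylserine receptor of long-lived resident macrophages, was at 43.9 CPM with and 9.21 CPM without a Cd163 UMI in Camk2d-CKO, and at 29.5 and 6.39 CPM in WT. It differed most of the resident markers, which did not all lean this way. Pf4 was lower with a Cd163 UMI, by a log2 ratio of -0.13 (-0.17 to -0.09) in Camk2d-CKO and -0.24 (-0.31 to -0.17) in WT. The Stab1 interval included 0 in both libraries. Hmox1 was at 417 and 276 CPM in Camk2d-CKO, a log2 ratio of 0.60 (0.48 to 0.71), and at 625 and 330 CPM in WT, a ratio of 0.92 (0.79 to 1.05). Slc40a1 and Tfrc leaned the same way, and the Tfrc interval of Camk2d-CKO, -0.08 to 0.40, included 0. The ferritin heavy chain differed less, with a log2 ratio for Fth1 of 0.09 in Camk2d-CKO and 0.04 in WT. Within the resident gate the markers themselves differed between genotypes in both directions, from 1.03 for Timd4 (21.5 CPM in Camk2d-CKO, 10.5 CPM in WT) to -0.35 for Fcna (492 and 625 CPM).

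Other cell types served to place the macrophage ratios. Their clusters were spread unevenly over the libraries as well. A progenitor cluster held 2469 Camk2d-CKO and 185 WT cells and another 804 and 1027. A T cell cluster held 743 and 24 and another 164 and 831. The part of this in the ratios was not tested. In progenitors 0 of 5 genes at the floor were called higher (4.93% of all genes were) and 1, Hmox1, was called lower (6.58% of all genes were), at 31.2 CPM in Camk2d-CKO and 53.7 CPM in WT. The macrophage markers in the same progenitors stood at 2.02 and 7.06 UMIs per 10000, and their part in the Hmox1 value was not tested. Hmox1 was also lower in Camk2d-CKO T cells (log2 ratio -2.12), B cells (-2.31) and natural killer cells (-3.25, from 4 UMIs in Camk2d-CKO). In blood endothelial cells its interval, -0.99 to 0.07, included 0. Monocytes went the other way, at 1.88, which rested on the 1 cell named above. In T cells 0 of 3 were called higher (6.06%) and 3 were called lower (7.79%). These were Fth1, at 1645 CPM in Camk2d-CKO and 2841 CPM in WT, Ftl1, at 794 and 2129 CPM, and Blvrb, at 13.9 and 70.1 CPM. The macrophage markers in the same T cells stood at 2.50 and 9.80 UMIs per 10000, also lower in Camk2d-CKO, and their part in the T cell result was not tested. With only T cells low in UMIs of other lineages, 842 Camk2d-CKO and 72 WT cells, the log2 ratio of Fth1 was -0.32, that of Ftl1 -1.03 and that of Blvrb -2.06. That of Cd163 was 0.00 there, but all T cells together held only 12 Camk2d-CKO and 15 WT Cd163 UMIs. This value thus rests on very few UMIs and does not show whether a difference remained.

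Cd163 outside the macrophage gate had no single direction. The log2 ratio was -1.54 (-2.06 to -1.02) in progenitors and -1.33 (-2.56 to -0.14) in all T cells, both at under 5 CPM. It was 0.43 (0.21 to 0.66) in cells of no gate, at 18.8 CPM in Camk2d-CKO and 13.9 CPM in WT, and in B and blood endothelial cells, with under 10 UMIs in each library, the interval included 0. Type 2 dendritic cells held 24 Cd163 UMIs in 9 of 51 Camk2d-CKO cells and 2 UMIs in 2 of 35 WT cells, a log2 ratio of 2.21 (0.20 to 5.34). Slc40a1 in progenitors was higher in Camk2d-CKO, by a log2 ratio of 0.77 (0.51 to 1.03), below the floor. Hp in progenitors differed by 0.10 (0.01 to 0.20).

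**Figure D4:**
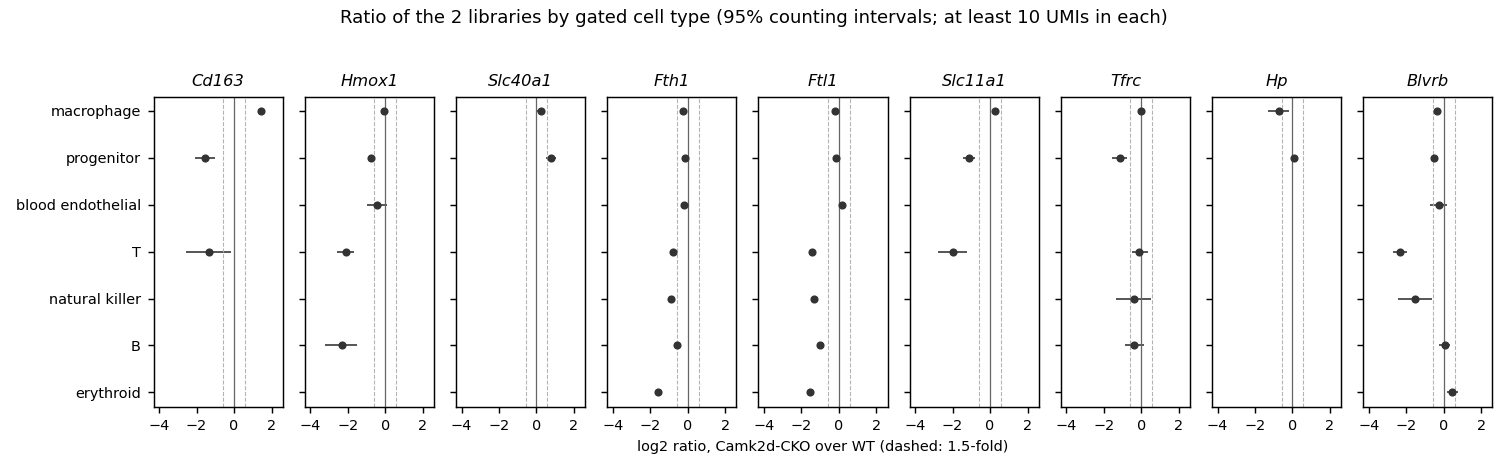
Log2 ratio of CPM, Camk2d-CKO over WT, of each listed gene in the gated types with at least 100 cells in both libraries and at least 10 UMIs in each, with 95% counting intervals and dashed lines at 1.5-fold. Cd163 is at 1.43 in macrophages and below 0 in progenitors and T cells, and Ftl1 is at -1.42 in T cells. The erythroid value of Ftl1, -1.53, is close to the median of all genes of that type, -1.56, and becomes 0.032 under median-of-ratios scaling.

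Other genes of iron and haem handling, 58 in 10 roles, gave the surroundings. In macrophages 17 reached the floor, of which 2 were called higher in Camk2d-CKO (3.69% of all genes were) and 0 lower (2.11%), and 6 had 0 UMIs in both libraries (Tfr2, Hephl1, Hamp, Hjv, Tmprss6 and Ftmt), which allows up to 0.230 CPM in Camk2d-CKO and 0.228 CPM in WT. Cp, the ferroxidase ceruloplasmin, was at 50.9 CPM in Camk2d-CKO and 30.6 CPM in WT, a log2 ratio of 0.74 (0.55 to 0.92). Srxn1, a sulfiredoxin induced by the transcription factor Nfe2l2, was at 76.6 and 45.8 CPM, a log2 ratio of 0.74 (0.59 to 0.89). In resident macrophages 1 of 17 at the floor, Srxn1, was called higher (2.96% of all genes).

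The most abundant gene of each role was close between genotypes. Transferrin (Trf) was at 873 CPM in Camk2d-CKO and 899 CPM in WT, the haemopexin receptor Lrp1 at 390 and 393 CPM, the peroxiredoxin Prdx1 at 804 and 898 CPM and the iron chaperone Pcbp2 at 310 and 281 CPM. Nfe2l2 was at 258 and 202 CPM, biliverdin reductase A (Blvra) at 120 and 122 CPM, the scaffold Iscu at 65.6 and 70.1 CPM, Hfe at 55.1 and 51.2 CPM and Alas1, which starts haem synthesis, at 48.9 and 58.1 CPM. None of these reached 1.5-fold, and Bmp6, of the hepcidin axis, was at 0.922 and 1.37 CPM.

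**Figure D5:**
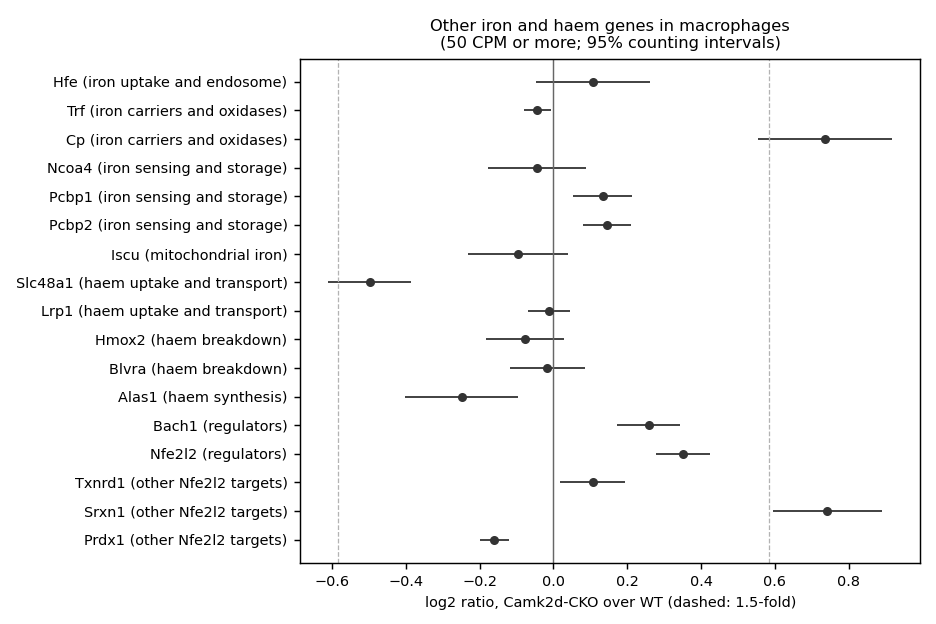
Log2 ratio of CPM, Camk2d-CKO over WT, in macrophages for the 17 other iron and haem genes at 50 CPM or more, with 95% counting intervals and dashed lines at 1.5-fold. Cp and Srxn1, both at 0.74, lie beyond the upper line, and the interval of Slc48a1, at -0.50, crosses the lower one.

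Between states, 19 of these genes reached the floor in both libraries, of which 4 were at least 1.5-fold higher in resident macrophages of both (14.8% of all genes were) and 6 at least 1.5-fold lower (16.5%). Cp was at 75.3 CPM in resident and 11.4 CPM in lipid-associated cells of Camk2d-CKO, and at 56.3 and 5.30 CPM in WT. Bach1, the haem-sensing repressor of Hmox1, was at 217 and 99.9 CPM in Camk2d-CKO and at 213 and 87.4 CPM in WT. Hfe and Slc25a37, a mitochondrial iron importer, were the other two higher ones. On the lower side, Slc48a1, which moves haem out of the phagolysosome, was at 63.6 CPM in resident and 162 CPM in lipid-associated cells of Camk2d-CKO, and at 83.6 and 180 CPM in WT. Lrp1, Alas1, Prdx1, Steap3 and Iscu were also on that side.

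Genes with a like pattern were named by Pearson correlation of log levels over 18 points (9 cell types in 2 libraries) among 5412 genes, as a description, since points of a library share depth and free RNA. Cd163 was nearest to C1qc (0.93) and Ltc4s (0.92), and Slc11a1 to Csf1r (0.98) and Ccl6 (0.97). Ftl1 was nearest to Tmem106a and Hexa (both 0.98), Fth1 to Renbp (0.93) and Pla2g15 (0.92), and Hmox1 to Hacd4 (0.95) and Fgd4 (0.93). Blvrb was nearest to Slc48a1 (0.91) and Cat (0.85), and Hp to Ptgs2 (0.91) and Emilin2 (0.90). The values were lower for Slc40a1, nearest to Bmp2 (0.88) and Itsn1 (0.85), and for Tfrc, nearest to Nfkbid (0.88) and Ell2 (0.86).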

How the data were processed

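Single-cell 3′ libraries of the epididymal fat stromal vascular fraction were used, 1 per genotype. The deposited matrices hold raw UMI counts per gene and barcode, per the file headers, which name Cell Ranger. The submitters' processing notes list Cell Ranger 5.0.0, Seurat 4.1.1 and mm10. The filter on barcodes asked for 500 UMIs and 200 detected genes, with mitochondrial UMIs limited to 20%, and those with a doublet score of 0.25 or more (scanpy 1.11.5, expected rate 0.08) were removed, 435 in Camk2d-CKO and 478 in WT. The score limit was set by hand, since the automatic limit marked 313 and 0. Cells were gated on markers, and UMIs were summed per gate and library and divided by the summed total (CPM). Limits of the gates were chosen after the marker distributions were seen. Just above the macrophage limit, 172 Camk2d-CKO and 257 WT cells held 100 to 120 UMIs per 10000 of macrophage markers. These counts include cells that the other limits kept out of the macrophage gate. Levels have exact Poisson, ratios exact conditional and shares Clopper-Pearson 95% intervals (scipy 1.17.1), for counting error only. A count of 0 was given the limit of 3 counts. The ratio code was tested on simulated data.

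The 9 genes and all other lists were chosen with earlier results of these data known. Text names all 9, every other iron or haem gene called in macrophages, the most abundant of each role, and for each of the 9 the 2 genes most like it by Pearson correlation of log2(CPM + 1); the genes named between macrophage states were chosen after their values were seen. Alternatives covered scaling, cell weights, filters, doublets, gates, Leiden clusters (leidenalg 0.10.2; 2000 variable genes, 30 components), the fold and the floor. Weighting by score bins was added after seeing the data.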

Additional observations from a re-analysis of the deposited data

How the results depend on the processing

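No paired analysis was possible because each genotype has 1 library and the labels give no replicate numbers, so no replicate could be left out either. Cd163 was the only listed gene called higher in Camk2d-CKO macrophages, and 0 were called lower, under every scaling, weighting, filter, gate, fold and floor tried. Its log2 ratio ran over 13 alternatives from 0.72 (6 lipid-associated score bins weighted equally, a setting chosen after seeing the data) to 1.96 (few UMIs of other lineages). That of Slc40a1 ran from -0.58 (9 joint score bins, also added) to 0.62, and those of Tfrc, -0.30 to 0.20, and Hmox1, -0.25 to 0.08, also changed sign. The 2 other iron and haem genes called higher became 0 with 3 states or 9 joint bins weighted equally, at 2-fold and at a floor of 100 CPM, and 1 with few UMIs of other lineages, with clusters and with 6 lipid-associated bins. The 0 called lower became 1 with few UMIs of other lineages and with clusters (Slc48a1), and 1 at a floor of 10 CPM (Alad). Listed genes at least 1.5-fold lower in resident macrophages numbered 2 with stricter state limits and 3 with subclusters, against 1. Over all genes the 103 higher and 59 lower calls became 200 and 234 with few UMIs of other lineages, 137 and 104 with clusters, 105 and 107 without ribosomal, mitochondrial and haemoglobin genes in the total, 36 and 18 at 2-fold, 75 and 34 at 100 CPM and 202 and 360 at 10 CPM. The log2 ratio of Ftl1 in erythroid cells was -1.53 and became 0.032 under median-of-ratios scaling, which centred all genes of that type at -1.56. The cause of these changes was not tested. Depth limits the WT library most, at a median of 3122.5 UMIs per cell against 8257 in Camk2d-CKO.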
